A study of Homo sapiens with 24 samples.

Results

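The genes described here are 40 interferon-stimulated genes, whose RNA cells make in larger amounts when an interferon binds its receptor. They were listed by name, and each was read on the probe set of that gene with the highest mean level. Of the 40 members, 39 had a probe set listed under their symbol alone, and STAT2 is not analysed here. Of the measured members 35 were among the 10963 genes tested, of 19775 genes named on the arrays. A gene was tested where it reached a log2 level of 4 in at least 3 arrays, which DHX58, OAS3, IFIT5 and IFI27 did not.

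The series used 2 human leukaemia lines with a rearranged MLL gene. MV4-11, labelled as a biphenotypic B myelomonocytic leukaemia, carries MLL-AF4 and was grown in IMDM with 10% FBS, and MOLM-13, an acute myeloid leukaemia line, carries MLL-AF9 and was grown in RPMI with 10% FBS. MV4-11 cells were exposed to EPZ004777, a small-molecule inhibitor of the histone methyltransferase DOT1L, at 3 uM or to vehicle, which was 0.1% DMSO, and were sampled on days 2, 4 and 6. MOLM-13 cells had the same exposures and were sampled on day 6. Each of the 8 groups held 3 arrays labelled as biological replicates. The labels do not say how those cultures were set up or whether the days share cultures, so p-values measure the spread between these samples. There is 1 line for each fusion, so line, fusion and medium cannot be told apart. Affymetrix arrays measured the RNA of whole cultures, in which more RNA per cell and more cells making it cannot be told apart, and the number of arrays limits the precision.

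As background, interferon-stimulated genes are switched on when type I or type III interferons activate kinases at their receptors. STAT2 and IRF9 then act in the factor ISGF3, which binds a short DNA element, the interferon-stimulated response element (ISRE), beside its target genes. The products sense viral RNA, block translation, tag proteins with ISG15 or stop viruses from entering, copying themselves or leaving. IRF7, STAT2 and IRF9 are both targets and parts of the response, and USP18 and ISG15 limit it. Monocytes and macrophages, the lineage nearest to both lines, express these genes strongly after interferon.

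The promoters of 32 of the 40 members are in the RefSeq sequences of build GRCh38.p14, each from 250 bases before to 50 after the start of the gene. The core of the ISRE was searched as GAAA, any 2 bases, and GAAA again, on both strands, and it was found in 22 of the 32 windows (68.8%), against 3.65% of all 27305 windows. Among tested members the share was 66.7% of 15 windows of members with a mean level of 6 or more and 69.2% of 13 windows of members with a mean under 6. A match is a description of letters, not of a bound site. The windows of 4 members are shown. Each was the tested member with the highest mean level, among those with a match, in its group of members by role. EIF2AK2 was higher in treated MV4-11 cultures on days 2 and 6, on the probe set used. It was lower on day 4 and in MOLM-13 cells. BST2 was higher in treated cultures in some comparisons, and IFIT3 and ISG15 were lower in some. Capitals mark the ISRE core matches, on either strand.
EIF2AK2, chr2:37156931-37157230, minus strand: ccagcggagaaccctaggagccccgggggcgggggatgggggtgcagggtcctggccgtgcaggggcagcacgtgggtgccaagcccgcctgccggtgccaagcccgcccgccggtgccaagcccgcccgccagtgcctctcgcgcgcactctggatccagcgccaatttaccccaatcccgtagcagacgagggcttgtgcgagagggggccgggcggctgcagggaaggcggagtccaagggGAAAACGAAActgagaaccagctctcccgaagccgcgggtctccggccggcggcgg
IFIT3, chr10:89327747-89328046, plus strand: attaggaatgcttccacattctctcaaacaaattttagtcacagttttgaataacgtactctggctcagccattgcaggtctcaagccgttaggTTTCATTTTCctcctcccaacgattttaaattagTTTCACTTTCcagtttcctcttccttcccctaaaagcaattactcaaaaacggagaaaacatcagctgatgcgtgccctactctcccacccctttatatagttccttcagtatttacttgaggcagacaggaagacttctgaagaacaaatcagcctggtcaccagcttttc
ISG15, chr1:1013247-1013546, plus strand: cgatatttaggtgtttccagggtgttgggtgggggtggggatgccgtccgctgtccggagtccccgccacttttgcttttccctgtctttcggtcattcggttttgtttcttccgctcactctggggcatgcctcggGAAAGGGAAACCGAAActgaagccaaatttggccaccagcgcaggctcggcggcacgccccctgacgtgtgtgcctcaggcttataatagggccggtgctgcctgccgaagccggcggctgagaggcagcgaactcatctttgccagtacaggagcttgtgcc
BST2, chr19:17405581-17405880, minus strand: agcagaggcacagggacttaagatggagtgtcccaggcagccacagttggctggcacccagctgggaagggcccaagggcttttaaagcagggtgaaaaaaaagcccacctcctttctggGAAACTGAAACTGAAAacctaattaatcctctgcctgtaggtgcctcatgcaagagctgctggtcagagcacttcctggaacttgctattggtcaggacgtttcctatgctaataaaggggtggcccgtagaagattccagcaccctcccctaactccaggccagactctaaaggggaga
EIF2AK2 held 1 match, whose first base was at -6 from the start. IFIT3 held 2 separate matches, at -156 and -122. In ISG15, at -113 and -107, and in BST2, at -130 and -124, the 2 matches overlapped into 1 longer run. Some members also lie side by side in the genome. In the RefSeq gene order of the same build, 20 members formed 8 runs of neighbours, among them the 4 IFIT genes on chromosome 10, OAS1, OAS3 and OAS2 on chromosome 12, MX2 and MX1 on chromosome 21 and CMPK2 and RSAD2 on chromosome 2.

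The members stood highest in the vehicle cultures of MV4-11 cells on day 4. All levels are log2 of the deposited intensities, and a level is the summary of 1 probe set, so levels are compared between arrays and not between genes. In MV4-11 cells on day 2 the median over the 35 tested members was 5.57, 5.78 and 5.86 in the treated arrays and 5.31, 5.93 and 5.71 in the vehicle arrays. On day 4 it was 7.03, 6.78 and 7.29 in treated arrays, against 8.72, 8.02 and 8.77 in vehicle arrays. On day 6 it was 6.95, 7.08 and 6.85 in treated arrays, against 7.59, 5.95 and 5.43 in vehicle arrays. Vehicle cultures thus stood above treated cultures on day 4 in every array, while on day 6 only vehicle replicate 1 did. In MOLM-13 cells on day 6 the median was 5.13, 5.02 and 4.71 in treated arrays, against 5.61, 6.18 and 6.07 in vehicle arrays, with no overlap.

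**Figure D1:**
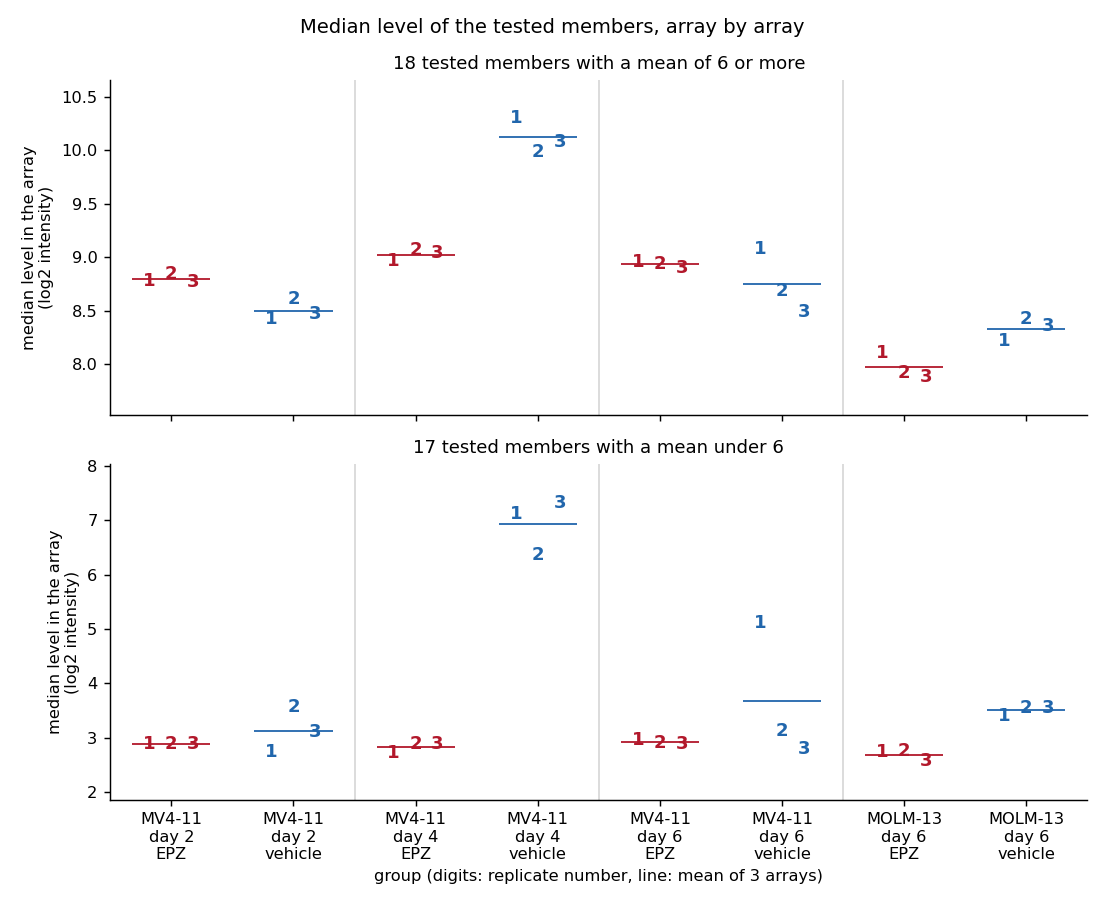
Median log2 level over the tested members in each of the 24 arrays, for members with a mean level of 6 or more (upper panel) and under 6 (lower panel). Digits are replicate numbers, the line is the mean of the 3 arrays of a group, and groups run along the horizontal axis. The vehicle arrays of MV4-11 day 4 are the highest, and the 3 vehicle arrays of day 6 lie apart from each other.

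Vehicle replicate 1 of day 6 stood apart in the members. Among the 28 members whose 3 vehicle arrays of day 6 spanned more than 0.5 on the log2 scale, replicate 1 was the highest in all 28. On day 2, vehicle replicate 2 was the highest in 10 of the 11 members with such a spread, and on day 4 vehicle replicate 2 was the lowest in 22 of 24. These ranks were not counted over all tested genes, so they describe the members only. The 17 members with a mean level under 6 showed these differences between replicates most. Their median in vehicle arrays of day 6 was 5.11, 3.13 and 2.80, and in vehicle arrays of day 4 it was 7.10, 6.37 and 7.32. In treated MV4-11 arrays of any day it lay between 2.73 and 2.97. The bottom of the scale was 2.19 in every array. Some dim members repeated a value of their own above it in several arrays, such as OAS1 at 2.89 and IFIT3 at 2.57. This median does not hold for each dim member, since in treated MV4-11 arrays RSAD2 lay at 5.56 to 7.69, SAMD9L at 4.67 to 6.37, USP18 at 4.17 to 5.15 and HERC6 at 3.89 to 5.70. A difference against values at the bottom depends on where the normalisation set that bottom, so its size is less certain than that of a bright member. The 18 members with a mean of 6 or more had a median of 10.30, 9.98 and 10.08 in vehicle arrays of day 4, against 8.43 to 9.08 in the other vehicle arrays of MV4-11.

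**Figure D2:**
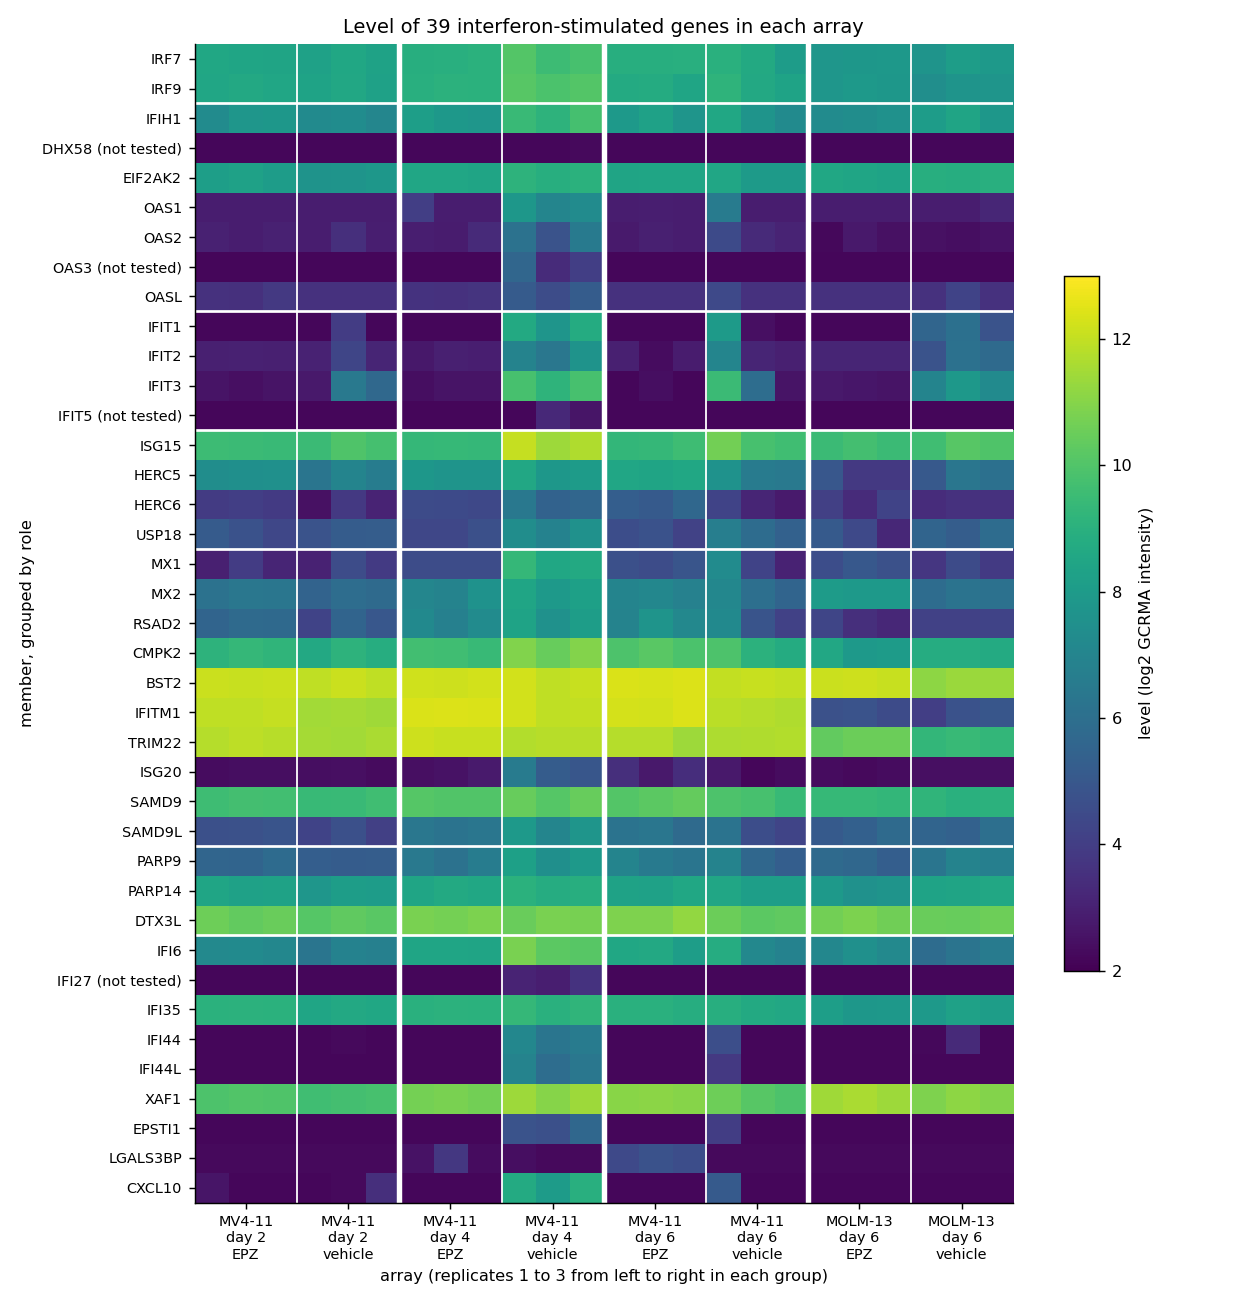
Level of every measured member (down the page, grouped by role) in each of the 24 arrays (across, treated groups left of their vehicle groups), as the log2 intensity on the colour scale. The arrays of MV4-11 vehicle day 4 and vehicle day 6 replicate 1 are brighter for most members than their neighbours.

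A set of 9 members passed the filter only through a single group and so had to differ there. These were OAS1, OAS2, OASL, ISG20, IFI44, IFI44L, EPSTI1 and CXCL10, through the day 4 vehicle arrays of MV4-11, and LGALS3BP, through the day 6 treated arrays of MV4-11. Their differences in comparisons that use that group are descriptions, and the counts for such comparisons are also given over the other 26 tested members, a choice made after seeing the data. Counts are descriptions, set beside the share of all tested genes called the same way. The median of all tested genes was 9.05 to 9.22 in every array, and no 2 arrays held the same values. Control probes at the 3′ end of the ACTB and GAPDH transcripts exceeded those at the 5′ end, a sign of RNA or labelling quality. The difference, averaged over both genes, was 0.53 to 0.57 on the log2 scale in treated and 0.64 to 0.68 in vehicle MV4-11 arrays of day 2. It was 0.59 to 0.67 in treated and 0.70 to 0.82 in vehicle arrays of day 4. On day 6 that difference was 0.83 to 1.91 in treated and 0.57 to 0.58 in vehicle MV4-11 arrays, and in MOLM-13 it was 2.10 to 2.84 in treated and 0.95 to 1.15 in vehicle arrays. Treated and vehicle arrays did not overlap in it on any day, with treated arrays lower on days 2 and 4 and higher on day 6 in both lines. The vehicle arrays of day 4, where the members stood highest, were also above the vehicle arrays of days 2 and 6 of MV4-11 in it. Its part in the results was not tested. All 10 measured myeloid markers passed the filter, and their summed level was higher in treated than in vehicle arrays, at 15.60 to 15.69 against 15.16 to 15.19 on day 4, 15.91 to 16.12 against 15.22 to 15.26 on day 6 and 16.67 to 16.76 against 16.11 to 16.13 in MOLM-13 cells. Bright markers weigh most in this sum of intensities. Of the 10, 5 were higher and 0 lower on day 4, and 6 were higher and 1 lower on day 6 in either line. The shares of all genes were 25.2% and 21.0% on day 4, 33.6% and 28.4% on MV4-11 day 6, and 29.3% and 36.5% in MOLM-13 cells. The summed level of 8 markers of plasmacytoid dendritic cells, a cell type known for making interferon, was higher in treated than in vehicle MV4-11 arrays on each day. It was 10.80 to 10.98 against 10.27 to 10.32 on day 2, 11.58 to 11.64 against 10.45 to 10.58 on day 4 and 12.16 to 12.43 against 10.44 to 10.54 on day 6. In MOLM-13 arrays of day 6 it was 10.01 to 10.16 in treated and 10.17 to 10.34 in vehicle arrays. On day 4 the transcription factor gene TCF4 averaged 11.05 in treated and 8.48 in vehicle arrays, while IL3RA averaged 9.01 and 9.28, IRF4 8.75 and 8.70, and SPIB 4.60 and 4.62, and of these 4 tested markers 1 was higher (TCF4) and 1 lower (IL3RA). The part of either list in the members' values was not tested. The 3 measured erythroid markers (HBB, ALAS2 and KLF1), 5 of 8 T and NK cell markers (CD3E, CD3G, CD2, CD8A and KLRD1), 3 of the 8 plasmacytoid dendritic cell markers (CLEC4C, GZMB and TCL1A) and 3 of 5 measured B cell markers (MS4A1, CD79A and CD22) were below 4 in all 24 arrays. Of the other T and NK cell markers NKG7 reached 11.43, NCAM1 10.46 and CD3D 8.31. The label of MV4-11 names the B lineage, and the other B cell markers had MV4-11 group means of 4.78 to 5.30 for CD79B and 3.93 to 4.99 for PAX5. All 18 measured interferon genes stayed below 4 in every array, with IFNB1 the highest at 2.53.

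The first question was how the members moved in vehicle cultures alone, which are the baseline of every treated comparison. Between day 2 and day 4 the antiviral genes of MV4-11 vehicle cultures rose together, and by day 6 most were lower again. Of the 35 tested members 33 were higher on day 4 than on day 2, against 12.9% of all tested genes, and 0 were lower, against 14.1%. Of the 26 members whose testing did not depend on a single group, 25 were higher, with a median of 1.94. LGALS3BP and BST2 were the 2 members not called, at 0.04 and 0.09 on the log2 scale. The median difference was 2.22 for tested members and -0.01 for all tested genes. It was 1.47 in the 18 members with a mean of 6 or more, of which 17 were called, and 3.26 in the 17 with a mean under 6, of which 16 were called. Those with a mean under 6 include OAS1, OAS2, OASL, ISG20, IFI44, IFI44L, EPSTI1 and CXCL10. These passed the filter only through the day 4 vehicle arrays, so the median and count of the dim members are descriptions. All tests are limma's moderated test with Benjamini-Hochberg adjustment over the 10963 genes, errors beside differences are standard errors of that fit, and a call is an adjusted p under 0.05.

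Among the transcription factors of the response, IRF7, which amplifies interferon production, had 10.07, 9.56 and 9.79 on day 4 against 8.29, 8.54 and 8.36 on day 2, and IRF9, the DNA-binding part of ISGF3, had 10.15, 9.89 and 10.04 against 8.40, 8.59 and 8.29. The arrays of both days did not overlap, and the differences were 1.41 ± 0.16 (limma adjusted p = 5.22e-06) and 1.60 ± 0.14 (4.26e-07). Among the sensors and enzymes of double-stranded RNA, IFIH1 and EIF2AK2 were higher, and OAS1, OAS2 and OASL were tested only because of these day 4 arrays. OAS1, which makes the messenger that activates RNase L, was at 7.80, 6.99 and 7.32 on day 4 against 2.86, 2.89 and 2.89 on day 2. EIF2AK2, the kinase PKR that stops translation, was at 9.13, 8.88 and 9.03 against 7.64, 7.71 and 7.84, a difference of 1.28 ± 0.10. PKR was bright on both days on this probe set, but its other bright probe set differed by 0.37 and was not called (limma adjusted p = 0.101).

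All 3 tested IFIT genes, whose products bind viral RNA ends, were higher on day 4. IFIT3 had 9.80, 9.16 and 9.79 on day 4 against 2.73, 6.44 and 5.71 on day 2, so that the day 2 arrays differed widely among themselves. IFIT1 had 8.68, 7.73 and 8.77 on day 4 and 2.19, 3.96 and 2.19 on day 2. CXCL10, a chemokine for T cells, had 8.72, 8.02 and 8.92 on day 4 against 2.19, 2.27 and 3.50 on day 2. In each of these 3 genes the lowest day 4 array lay above the highest day 2 array, and the differences of IFIT3 and IFIT1 were 4.62 ± 1.07 and 5.61 ± 0.94. ISG15, a ubiquitin-like protein joined to other proteins, had 12.04, 11.39 and 11.69 on day 4 against 9.50, 9.95 and 9.78 on day 2, a difference of 1.97 ± 0.20 (limma adjusted p = 1.78e-06). This bright member did not overlap between the days. MX1, a GTPase that traps viral particles, had 9.31, 8.57 and 8.67 on day 4 and 3.06, 4.54 and 3.87 on day 2. The interferon-induced genes OAS3 and IFI27, which were not tested, also peaked in the day 4 vehicle arrays, at 5.64, 3.35 and 4.05 for OAS3 and 3.12, 2.93 and 3.62 for IFI27, against at most 2.21 and 2.19 in any other array.

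On day 6, 31 of the tested members were lower than on day 4 in vehicle cultures, against 9.33% of all genes, and 0 were higher, against 9.93%. Over the 26 members it was 23 lower. The members not called were BST2, IFITM1, TRIM22 and LGALS3BP. The 3 vehicle arrays of day 6 differed widely among themselves. IFIT3 was at 9.52, 5.95 and 2.57 in replicates 1, 2 and 3, IFIT1 at 7.98, 2.44 and 2.19, OAS1 at 6.56, 2.89 and 2.89 and MX1 at 7.31, 4.20 and 3.06. For these genes replicate 1 was nearer to the day 4 arrays, and replicates 2 and 3 were nearer to the day 2 arrays. CXCL10 was at 5.11, 2.19 and 2.19 and the interferon-induced gene IFI44 at 4.64, 2.19 and 2.19, so each was off the bottom of the scale only in replicate 1. Between day 6 and day 2, 1 member was called, EIF2AK2 at 0.43 ± 0.10 (limma adjusted p = 0.046), against 0.784% of all genes called higher, and 0 to 3 members were called with an array left out, 3 of them without vehicle replicate 3 of day 6. The median difference was 0.48, against 0.00 over all tested genes. Of the differences 34 of 35 were above 0, with no share of all genes computed. Vehicle replicate 1 of day 6 weighed in these means. The members' median was 7.59, 5.95 and 5.43 in the day 6 arrays, against 5.31, 5.93 and 5.71 in the day 2 arrays. These comparisons share arrays: the day 4 vehicle arrays enter both time steps and the treated comparison of day 4.

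The question on each day was how treated cultures differed from vehicle cultures of that day. On day 2, few members had moved, and those that were called were bright genes that were higher under EPZ004777. The 5 members called were EIF2AK2, IFI35, IFITM1, TRIM22 and PARP14, against 8.83% of all genes called higher, and 0 were lower, against 3.69%. The median was 0.14 over tested members and 0.02 over all tested genes, and all 5 were among the 18 members with a mean of 6 or more. EIF2AK2 had 8.16, 8.31 and 8.09 in treated cultures, against 7.64, 7.71 and 7.84 in vehicle cultures, which is 0.46 ± 0.10 (limma adjusted p = 0.00541). IFI35, an interferon-induced leucine zipper protein, had 9.00, 9.05 and 9.01 in treated cultures, against 8.45, 8.63 and 8.57 in vehicle cultures, which is 0.47 ± 0.10 (0.00413). IFITM1, which keeps viruses from fusing with the cell membrane, had 11.97, 11.97 and 12.04 against 11.47, 11.52 and 11.42 (0.52 ± 0.15, 0.0282). The treated arrays lay above the vehicle arrays without overlap in each of these 3 genes. TRIM22, an antiviral ubiquitin ligase, and PARP14, an ADP-ribosyltransferase, differed by 0.29 ± 0.08 and 0.36 ± 0.11. Only EIF2AK2 and IFI35 kept the call when each of the 6 arrays was left out in turn, and the other bright probe set of EIF2AK2 was not called, at 0.0782 (limma adjusted p = 0.852).

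IFIT3 on day 2 had 2.57, 2.43 and 2.57 in treated cultures, against 2.73, 6.44 and 5.71 in vehicle cultures, so the 2 groups did not overlap, but the difference of -2.43 ± 1.07 did not pass (limma adjusted p = 0.161). It passed without vehicle replicate 1 (-3.55, 0.0496). HERC5, the ligase that joins ISG15 to its targets, had 7.41, 7.46 and 7.51 in treated cultures and 6.29, 6.94 and 6.61 in vehicle cultures, and its difference of 0.85 ± 0.33 did not pass either (0.113). Of the members, 16 had arrays that did not overlap between treated and vehicle cultures on day 2, a state shared by 38.9% of all tested genes.

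On day 4 the members were mostly lower in treated MV4-11 cultures, set against vehicle cultures that stood at their highest. Of the tested members 26 were lower, against 21.0% of all genes, and 2 were higher, against 25.2%. Of the 26 members whose testing did not depend on a single group, 18 were lower and 1 higher, with a median of -1.02. The median was -1.36 over tested members, against 0.01 over all tested genes. It was -0.54 in the members with a mean of 6 or more, of which 11 of 18 were lower and 1 higher, and -2.98 in those with a mean under 6, of which 15 of 17 were lower and 1 higher. Those with a mean under 6 include all members tested only through these vehicle arrays, so their median and count are descriptions. By role, both transcription factors, all 3 tested IFIT genes and, among the double-stranded RNA sensors and enzymes, IFIH1 and EIF2AK2 were lower, and so were OAS1, OAS2 and OASL, which were tested only through these vehicle arrays. Of the 4 genes of ISG15 conjugation 3 were lower, and of the 10 restriction factors 5 were lower, with ISG20 among them through the same vehicle arrays, and 1 was higher.

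CXCL10 had 2.19, the bottom of the scale, in each of the 3 treated arrays, against 8.72, 8.02 and 8.92 in the vehicle arrays through which it came to be tested. IFIT3 had 2.40, 2.57 and 2.57 in treated arrays, against 9.80, 9.16 and 9.79 in vehicle arrays. IFIT1 was at the bottom of the scale, 2.19, in every treated array, against 8.68, 7.73 and 8.77 in vehicle arrays (-6.20 ± 0.94, limma adjusted p = 1.97e-05). The treated arrays of these genes were about as low as the treated arrays of day 2. ISG15 had 9.32, 9.36 and 9.33 in treated arrays, against 12.04, 11.39 and 11.69 in vehicle arrays (-2.37 ± 0.20, limma adjusted p = 1.1e-08). USP18, the protease that takes ISG15 off proteins and dampens the receptor, had 4.33, 4.33 and 4.67 in treated arrays, against 7.38, 6.88 and 7.55 in vehicle arrays (-2.82 ± 0.37, 3.15e-06). For these 2 genes both groups lay above the bottom of the scale. USP18 held the same value in treated replicates 1 and 2, and whether the processing set that value was not tested.

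Other members, among them IFI6, MX2 and IFIH1, were intermediate under treatment, between the vehicle levels of day 2 and of day 4. MX1 was at an identical 4.54 in all 3 treated arrays, against 9.31, 8.57 and 8.67 in vehicle arrays. Treated replicate 2 of day 6 and vehicle replicate 2 of day 2 held the same value. MX1 was thus not above all vehicle arrays of day 2 (3.06, 4.54 and 3.87). Whether the processing set this repeated value was not tested, so MX1 is not counted as intermediate. IFI6, a small interferon-induced membrane protein, had 8.47, 8.48 and 8.44 in treated arrays, against 10.79, 10.21 and 10.13 in vehicle arrays (-1.91 ± 0.34, limma adjusted p = 0.000113). MX2, a relative of MX1 that acts on viral nuclear import, had 7.03, 6.91 and 7.59, against 8.48, 7.90 and 8.25 in vehicle arrays (-1.03 ± 0.26, 0.0025). For IFI6 and MX2 the treated arrays of day 4 lay above all vehicle arrays of day 2, which were at 6.28, 6.87 and 6.80 and at 5.49, 5.93 and 5.79. IFIH1, the sensor MDA5, had 8.16, 7.86 and 7.76 in treated arrays, against 9.47, 9.13 and 9.76 in vehicle arrays (-1.53 ± 0.25, 4.97e-05). HERC5 had 7.83, 7.69 and 7.67 in treated arrays and 8.61, 7.81 and 8.04 in vehicle arrays, which overlapped (-0.42 ± 0.33, 0.326).

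The 2 members higher on day 4 were TRIM22 and LGALS3BP. TRIM22 had 12.17, 12.06 and 12.06 in treated arrays, against 11.72, 11.81 and 11.80 in vehicle arrays (0.32 ± 0.08, limma adjusted p = 0.00324). LGALS3BP, a secreted galectin-binding protein, had 2.54, 3.79 and 2.35 in treated arrays, against 2.39, 2.28 and 2.28 in vehicle arrays, which overlapped (0.57 ± 0.22, 0.0352), and it lost the call without treated replicate 2 (0.13, adjusted p = 0.194) or any 1 vehicle array (0.0549 to 0.082). Of the 26 members lower on day 4, 25 kept the call with each array left out, all but PARP14, and TRIM22 kept its call.

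The choice of vehicle arrays turned the sign of 18 of the 35 tested members. With the vehicle arrays of days 2 and 6 in place of those of day 4, 20 members were higher and 3 lower in the same treated arrays of day 4, against 29.1% and 28.0% of all genes, and the median of tested members was 0.43. The 3 that were lower were IFIT3 at -2.97 (limma adjusted p = 0.00988), USP18 at -1.10 (0.00576) and ISG15 at -0.55 (0.011). These 3 members were lower against either set of vehicle arrays. Among the members that were higher, RSAD2, the radical-SAM enzyme viperin, was at 1.95, SAMD9L, a restriction factor of poxviruses, at 1.64, IFI6 at 1.34, and MX2 and HERC6 at 1.20 each. Of the 18 members with a mean of 6 or more, 16 were higher and 1 lower, with a median of 0.49, while the 17 with a mean under 6 had 4 higher and 2 lower, with a median of -0.27. The day 6 arrays that enter this alternative include vehicle replicate 1, which was high. The alternative was chosen with the high day 4 vehicle arrays known, and in it treatment and day cannot be told apart.

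**Figure D3:**
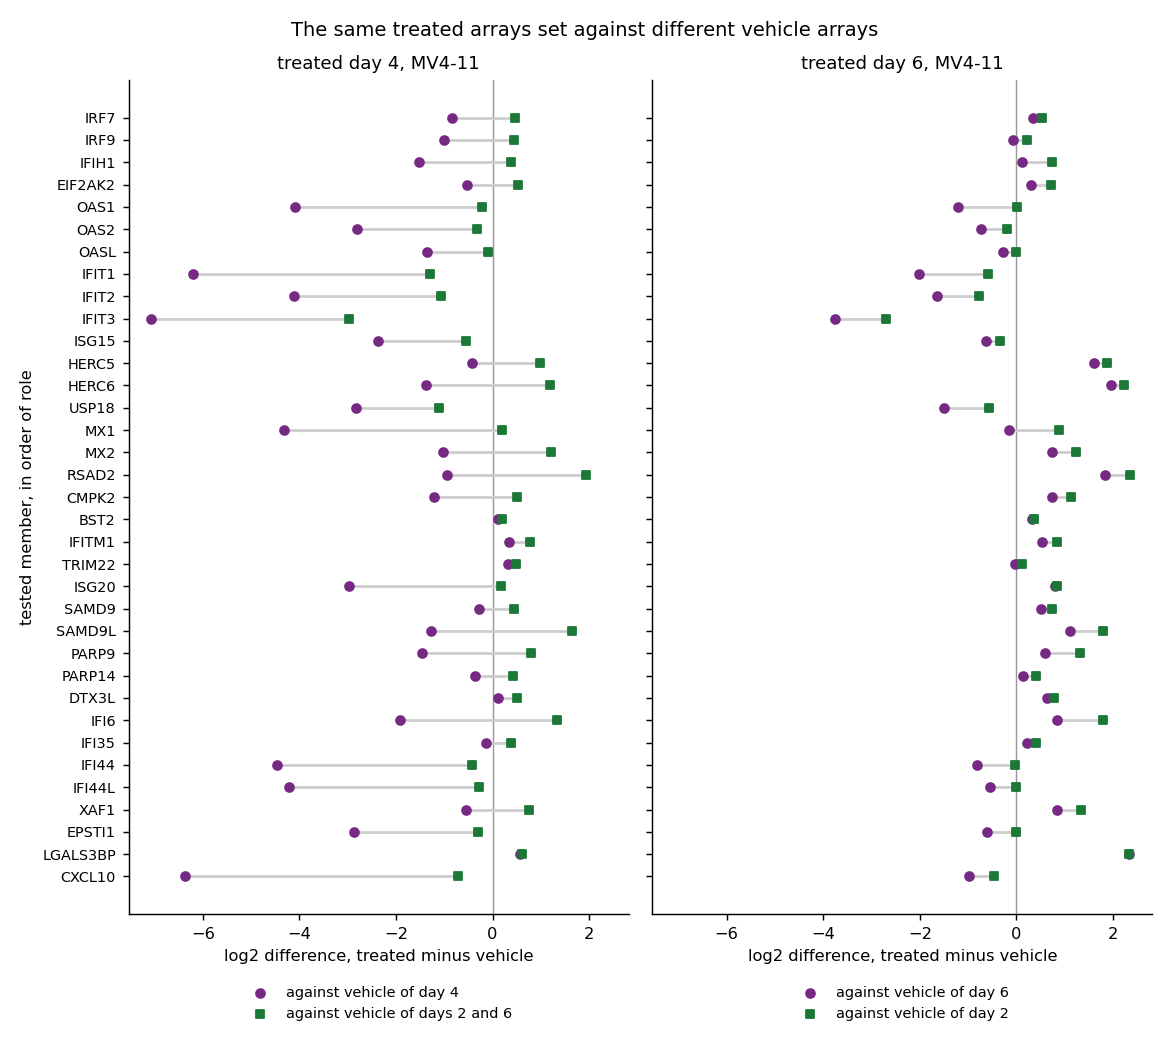
Differences of the tested members (horizontal axis, log2, treated minus vehicle) for treated day 4 and treated day 6 arrays of MV4-11 cells, set against the vehicle arrays of the same day (circles) and against other vehicle arrays (squares). The day 4 differences lie mostly below 0 against day 4 vehicle arrays and mostly above 0 against those of days 2 and 6.

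Treated cultures followed their own course over time, without the day 4 peak. Between days 2 and 4, 13 members were higher in treated cultures and 0 were lower, against 18.6% and 20.0% of all genes, with a median of 0.29 for tested members and 0.00 for all genes. SAMD9L rose by 1.55 ± 0.35, IFI6 by 1.28 ± 0.34 and the pro-apoptotic gene XAF1 by 0.75 ± 0.12, and only these 3 and SAMD9 kept the call with each array left out. RSAD2 had 7.23, 6.78 and 7.29 on day 4, against 5.56, 5.78 and 5.77 on day 2, which did not overlap (1.40 ± 0.52, limma adjusted p = 0.0391). The count was 7 without treated replicate 1 or 3 of day 2 and 8 without replicate 2 of day 2 or without replicate 2 or 3 of day 4. Between days 4 and 6, LGALS3BP was called higher and TRIM22 fell by 0.44 on the log2 scale (limma adjusted p = 0.000775), against 14.0% and 9.9% of all genes, and no other member was called. LGALS3BP was at 4.44, 4.78 and 4.60 on day 6, the arrays through which it came to be tested.

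On day 6, HERC5, HERC6 and 8 of the 10 restriction factors were higher in treated MV4-11 cultures, and IFIT2, IFIT3, USP18 and ISG15 were lower. Of the 35 tested members 15 were higher and 4 lower, against 33.6% and 28.4% of all genes, and 62.0% of all genes were called in either direction. Over the 26 members whose testing did not depend on a single group, 13 were higher and 4 lower. With only the compared arrays fitted, fewer members were called in either direction, as given in the section on processing. No test set one group of members against another. The median was 0.21 over tested members and 0.04 over all genes. The restriction factors MX1 and TRIM22 and, among the 3 tested IFIT genes, IFIT1 were not called.

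HERC5 had 8.49, 8.43 and 8.53 in treated arrays, against 7.59, 6.58 and 6.44 in vehicle arrays (1.61 ± 0.33, limma adjusted p = 0.00032), and its relative HERC6 had 5.28, 5.11 and 5.70, against 4.22, 3.15 and 2.80 (1.97 ± 0.34, 4.3e-05). RSAD2 had 6.92, 7.69 and 7.12 in treated arrays, against 7.24, 4.85 and 4.15 in vehicle arrays (1.83 ± 0.52, 0.0047). HERC5 and HERC6 did not overlap between the groups, while RSAD2 overlapped through vehicle replicate 1. BST2, the tetherin that holds budding viruses at the cell surface, had 12.36, 12.32 and 12.42 in treated arrays, against 12.01, 12.08 and 12.01 in vehicle arrays (0.33 ± 0.07, limma adjusted p = 0.000599). DTX3L, a ubiquitin ligase that pairs with PARP9, had 10.87, 10.89 and 11.21, against 10.53, 10.22 and 10.31 (0.64 ± 0.10, 1.59e-05), and XAF1 had 11.05, 11.10 and 10.98, against 10.57, 10.15 and 9.93 (0.83 ± 0.12, 8.82e-06). The groups of these 3 bright members did not overlap, although the vehicle arrays of XAF1 spanned more than 0.5, with replicate 1 the highest. LGALS3BP was at 2.28 in each vehicle array, near the bottom of the scale, and its treated arrays, given above, had brought it into the test.

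The members that were lower on day 6 were IFIT3, IFIT2, USP18 and ISG15. IFIT3 had 2.19, 2.40 and 2.19 in treated arrays, against 9.52, 5.95 and 2.57 in vehicle arrays (-3.76 ± 1.07, limma adjusted p = 0.00485). USP18 had 4.59, 4.78 and 4.17 in treated arrays, against 6.71, 5.91 and 5.43 in vehicle arrays (-1.50 ± 0.37, 0.00147), and ISG15 had 9.30, 9.32 and 9.56, against 10.64, 9.80 and 9.64 (-0.64 ± 0.20, 0.00993). In these 3 genes no treated array reached a vehicle array, although vehicle replicate 3 came close. The errors come from a spread shared by all groups of the fit. They do not measure the wide spread of the vehicle arrays of IFIT3 on this day. IFIT1 was at 2.19 in every treated array, against 7.98, 2.44 and 2.19 in vehicle arrays, and did not pass (-2.01 ± 0.94, limma adjusted p = 0.0694). MX1 had 4.67, 4.54 and 4.91 in treated arrays, against 7.31, 4.20 and 3.06 in vehicle arrays, and did not pass either (-0.15 ± 0.65, 0.864).

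The day 6 counts turned on which vehicle array was used. Without vehicle replicate 1, 19 members were higher and 2 lower, and MX1 was then higher at 1.07 (limma adjusted p = 0.0219). Without vehicle replicate 2, 10 were higher and 10 lower, and without replicate 3, 10 were higher and 11 lower. IFIT1 was at -0.13 (adjusted p = 0.824) without replicate 1, at -2.90 (0.0163) without replicate 2 and at -3.02 (0.00996) without replicate 3. With each array left out, 9 of the 15 higher members kept the call (HERC5, HERC6, RSAD2, BST2, IFITM1, SAMD9, DTX3L, XAF1 and LGALS3BP), and of the 4 lower members IFIT3 and USP18 did, while IFIT2 and ISG15 lost it. Against the vehicle arrays of day 2, an alternative chosen after seeing the data, 20 members were higher and 1 lower on day 6, against 34.2% and 28.8% of all genes, with a median of 0.52. The 1 that was lower was IFIT3 at -2.71 (limma adjusted p = 0.0338), and RSAD2 was at 2.35, HERC6 at 2.22, HERC5 at 1.87 and IFI6 at 1.80. In this alternative too, treatment and day cannot be told apart. The 3′ to 5′ difference of the control probes was also higher in the treated arrays of this day, as given above.

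In MOLM-13 cells on day 6, the IFIT genes, HERC5 and USP18 were lower in treated cultures, while MX2, TRIM22 and BST2 were higher. Of the tested members 5 were higher and 10 lower, against 29.3% and 36.5% of all genes, so the members' shares were below the background in both directions. The median was -0.10 over tested members and -0.03 over all genes. All 3 tested IFIT genes were lower. IFIT3 had 2.73, 2.67 and 2.57 in treated arrays, against 6.96, 7.85 and 7.27 in vehicle arrays (-4.70 ± 1.07, limma adjusted p = 0.000729). IFIT1 was at 2.19 in each treated array, against 5.61, 6.08 and 4.81 in vehicle arrays (-3.31 ± 0.94, 0.00436), and IFIT2 at 3.13 in each treated array, against 4.82, 6.10 and 5.79 (-2.44 ± 0.69, 0.0041). All 3 vehicle arrays of MOLM-13 were clearly off the bottom of the scale for these genes, unlike those of MV4-11 on day 6. They still differed among themselves, since IFIT1 ran from 4.81 to 6.08 and IFIT2 from 4.82 to 6.10.

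HERC5 had 4.98, 3.82 and 3.84 in treated MOLM-13 arrays, against 5.06, 6.31 and 6.07 in vehicle arrays (-1.61 ± 0.33, limma adjusted p = 0.0003). USP18 had 5.13, 4.41 and 3.24, against 5.53, 5.26 and 5.89 (-1.30 ± 0.37, 0.00425), and PARP14 had 7.95, 7.55 and 7.68, against 8.36, 8.41 and 8.58 (-0.72 ± 0.11, 1.58e-05). No treated array of these 3 genes reached the lowest vehicle array. ISG15 had 9.48, 9.70 and 9.49 in treated arrays and 9.63, 10.14 and 9.99 in vehicle arrays, which overlapped (-0.36 ± 0.20, 0.121). EIF2AK2 was lower here, with 8.54, 8.47 and 8.40 in treated arrays, against 8.91, 8.86 and 8.92 in vehicle arrays (-0.43 ± 0.10, limma adjusted p = 0.00111).

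MX2 was the member with the largest higher value in MOLM-13 cells, at 8.04, 7.94 and 7.92 in treated arrays, against 5.91, 6.18 and 6.12 in vehicle arrays (1.90 ± 0.26, limma adjusted p = 2.47e-06). TRIM22 had 10.37, 10.54 and 10.51 in treated arrays, against 9.27, 9.40 and 9.28 in vehicle arrays (1.16 ± 0.08, 4.02e-10). BST2 had 12.11, 12.15 and 12.07, against 11.13, 11.34 and 11.34 (0.84 ± 0.07, 8.27e-09). These 3 genes differed by several times the spread between arrays. With each array left out, 4 of the 5 higher members kept the call, all but IFI6, and 8 of the 10 lower members did, all but IFIH1 and CMPK2. The control probes of the treated MOLM-13 arrays had the largest 3′ to 5′ difference of the series, as given above, and its part in these values was not tested.

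**Figure D4:**
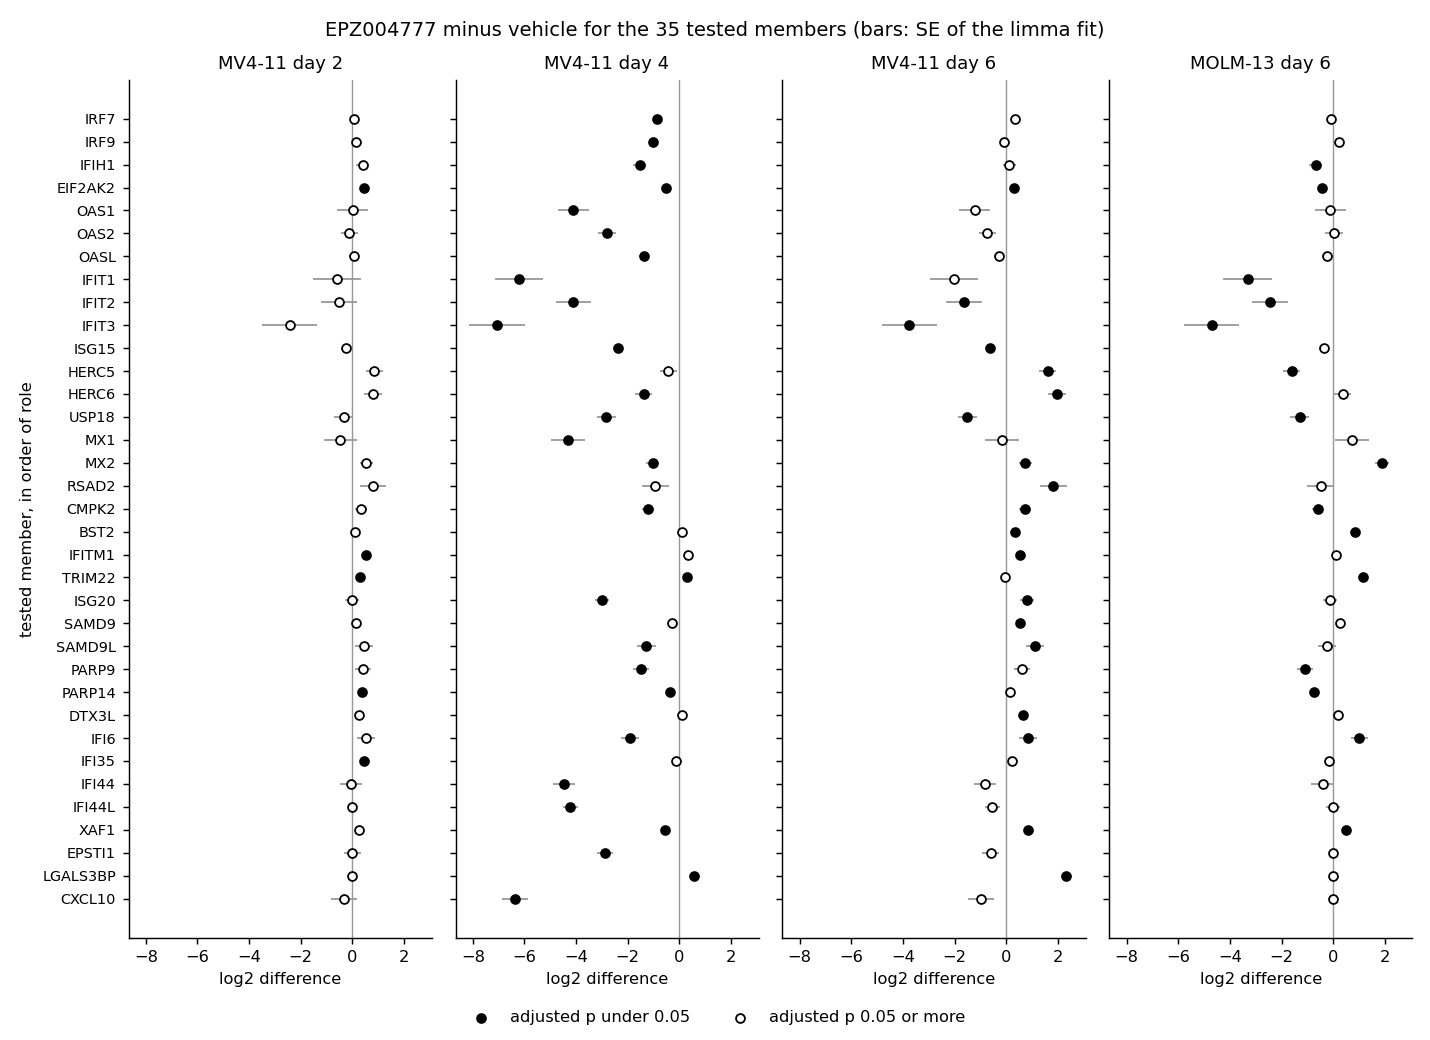
Difference (log2, treated minus vehicle of the same line and day) of each of the 35 tested members in the 4 treated comparisons, with the standard error of the limma fit as bars, filled points for an adjusted p under 0.05 and members ordered by role. IFIT genes are below 0 in each comparison, and CXCL10, IFIT1, IFIT3 and MX1 each have their own lowest value on MV4-11 day 4.

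Differences between the comparisons were tested in the same fit. The effect of EPZ004777 on day 4 minus that on day 2 was lower for 27 of the tested members, against 7.77% of all genes, and higher for 0, against 7.22%. The effect on day 6 minus that on day 4 was higher for 28 members, against 13.9%, and lower for 1, TRIM22, against 11.9%. Over the 26 members whose testing did not depend on a single group, 19 were lower in the first difference, and 19 higher and 1 lower in the second. Both differences use the same day 4 vehicle arrays, so the 2 counts are not independent. Among the members whose effect did not differ between days 4 and 2 were BST2, IFITM1 and DTX3L, at 0.01 ± 0.10, -0.18 ± 0.21 and -0.14 ± 0.14 (limma adjusted p of 0.975, 0.67 and 0.606), which does not show that the effects were equal.

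Between the lines on day 6, the effect in MOLM-13 minus that in MV4-11 was lower for 11 tested members, against 32.7% of all genes, and higher for 3, against 19.3%. The median of all tested genes for this difference was -0.10, and 0.06 when arrays were set to a common median. HERC5 differed most, at -3.22 ± 0.47 (limma adjusted p = 1.38e-05), since it was lower in treated MOLM-13 and higher in treated MV4-11 cultures. RSAD2 at -2.31 ± 0.73 was called in the same direction, as was LGALS3BP, whose treated MV4-11 arrays had brought it into the test, and TRIM22 at 1.19 ± 0.11, MX2 at 1.15 ± 0.36 and BST2 at 0.51 ± 0.10 in the other. For IFIT3 the difference between lines was -0.94 ± 1.51 and did not pass (0.627). Without vehicle replicate 1 of MV4-11 day 6 the count of lower members was 18.

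The lines also differed without the inhibitor. In vehicle cultures of day 6, 2 members were higher in MOLM-13 than in MV4-11 cells and 11 were lower, against 30.7% and 33.0% of all genes. IFITM1 was at 4.02, 4.76 and 4.92 in MOLM-13 vehicle arrays, against 11.88, 11.78 and 11.68 in MV4-11 vehicle arrays (-7.21 ± 0.15, limma adjusted p = 3.99e-19). TRIM22 was at 9.27, 9.40 and 9.28 against 11.64, 11.68 and 11.73 (-2.37 ± 0.08). IFITM1 was thus dim in MOLM-13 cells with or without the inhibitor, where treated arrays had 4.71, 4.83 and 4.51. The members higher in MOLM-13 were EIF2AK2 (0.74 ± 0.10) and XAF1 (0.78 ± 0.12). Without vehicle replicate 1 of MV4-11, 9 members were higher in MOLM-13, and without vehicle replicate 3 of MV4-11, 17 were lower.

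**Figure D5:**
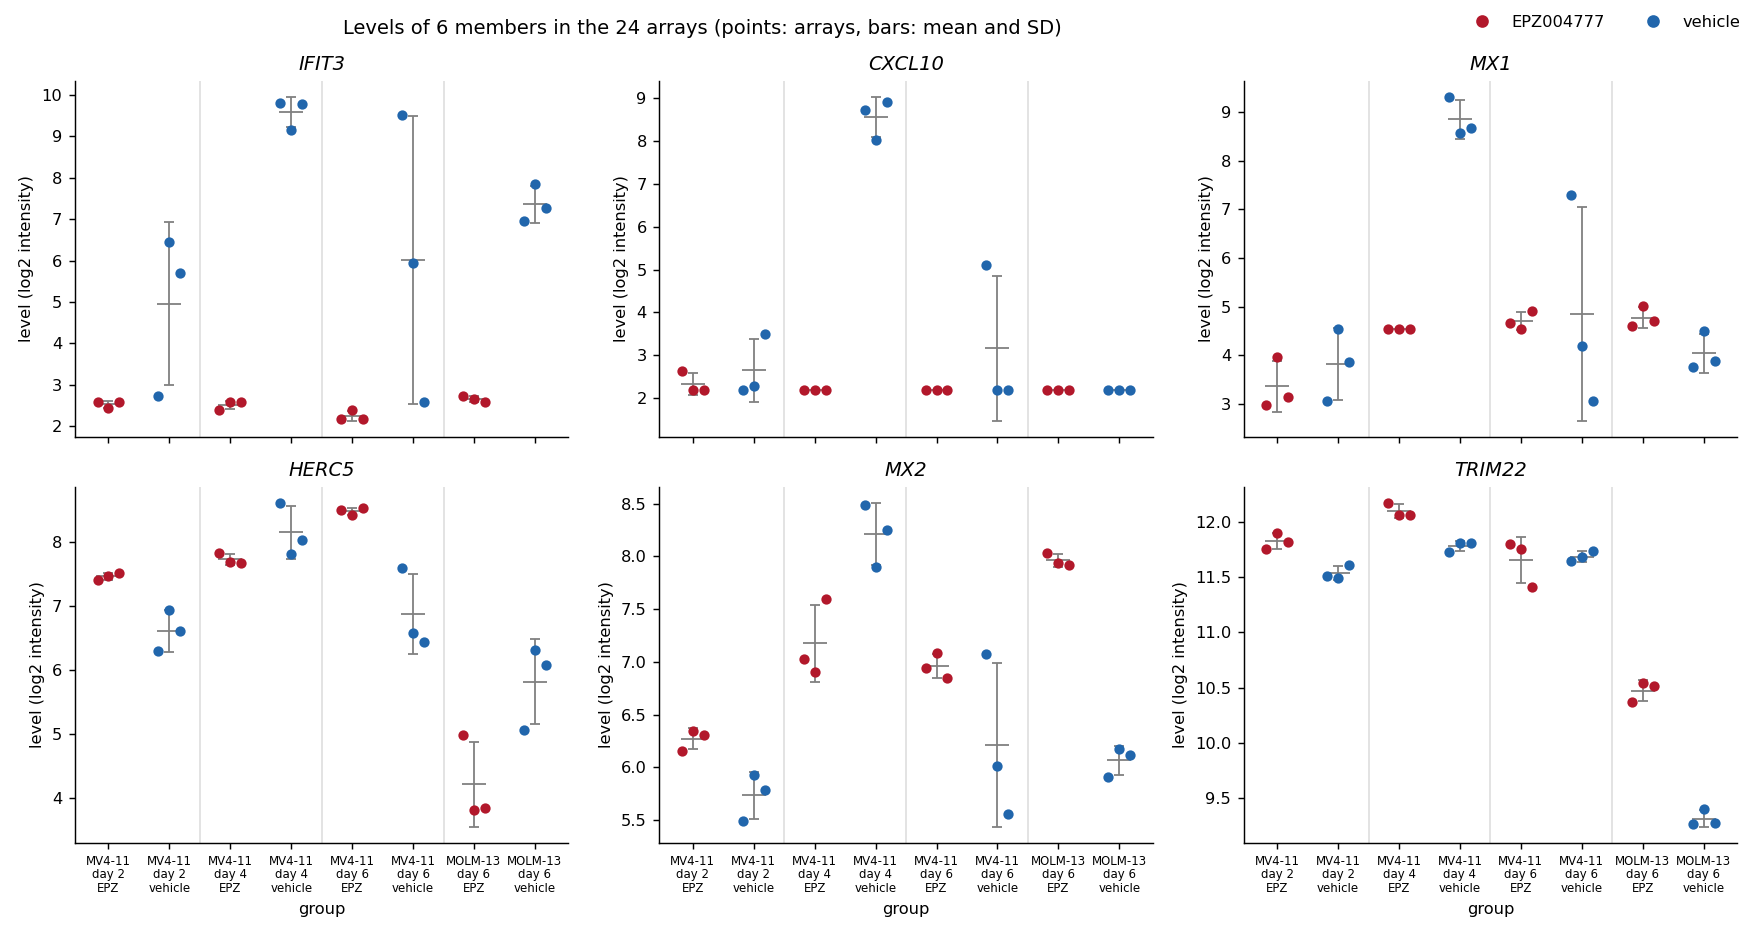
Levels (log2) of IFIT3, CXCL10, MX1, HERC5, MX2 and TRIM22 in each of the 24 arrays, with a point for each array, bars for the mean and SD of 3 arrays and treated groups left of their vehicle groups. IFIT3 and CXCL10 are near the bottom of the scale in all treated arrays, and HERC5 is higher under treatment on MV4-11 day 6 and lower in MOLM-13.

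Genes around the members in the pathway also differed in the vehicle cultures of day 4. Of 9 tested receptor and JAK kinase genes, 5 were higher and 0 lower on day 4 than on day 2 in vehicle cultures, and of 14 tested nucleic acid sensors and adaptors 4 were higher and 0 lower, among them IFI16 at 1.87 ± 0.24 and RIGI, the sensor RIG-I, at 0.93 ± 0.13. Of 23 tested interferon-induced genes outside the members, 14 were higher and 1 lower, with a median of 0.44, led by the helicase gene DDX60 at 3.22 ± 0.33 and PARP12 at 2.95 ± 0.17. Of 11 tested NF-kappaB and immediate inflammatory genes 10 were higher and 0 lower, with a median of 1.31, among them ATF3, a stress transcription factor, at 3.33 ± 0.46. The day 4 vehicle cultures were thus high in inflammatory genes as well as in the members, and the part of one in the other was not tested. The shares of all genes called in this comparison were 12.9% higher and 14.1% lower.

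Under the inhibitor on day 4, IFNAR1, a chain of the type I interferon receptor, was higher by 0.53 ± 0.10 (limma adjusted p = 0.000164), and it was also higher on day 6 in MV4-11 (0.71 ± 0.10) and MOLM-13 cells (0.77 ± 0.10). Shares of all genes called higher and lower were 25.2% and 21.0% on day 4, 33.6% and 28.4% on day 6, and 29.3% and 36.5% in MOLM-13 cells. On day 4, 4 of 9 receptor and kinase genes were higher and 2 lower, 10 of 11 inflammatory genes were lower, with TNF at -3.67 ± 0.21, and of the 23 other interferon-induced genes 5 were higher and 7 lower, with PARP12 at -2.84 ± 0.17 and DDX60 at -2.54 ± 0.33. SOCS1, which inhibits JAK kinases, was lower on day 4 in MV4-11 cells (-1.19 ± 0.19) and on day 6 in MOLM-13 cells (-1.68 ± 0.19). The negative regulators as a list had 2 higher and 3 lower of 8 on day 4 and 5 higher and 1 lower in MOLM-13 cells. UBE2L6, the enzyme that carries ISG15 to its ligases, was higher by 1.30 ± 0.18 on day 2 and by 1.49 ± 0.18 on day 6 in MV4-11 cells, unlike ISG15 itself. The DNA sensor CGAS was lower on day 6, at -1.07 ± 0.15 in MV4-11 and -1.89 ± 0.15 in MOLM-13 cells. On day 6, 9 of the 14 sensors and adaptors were higher and 3 lower in MV4-11 cells, and 8 and 3 in MOLM-13 cells.

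The genes outside these lists whose arrays deviated from their group means most like the members' array median were GDF15, MEI1, PPP1R15A, ITGAX and FYN. Pearson's r over the 24 arrays was 0.89, 0.88, 0.88, 0.87 and 0.87 for them, given as a description, since the arrays share groups and the values come from the same normalisation. Without the 3 vehicle arrays of MV4-11 day 6 it was 0.61, 0.54, 0.69, 0.74 and 0.57 over 21 arrays, lower for all 5 genes. GDF15, a stress cytokine, had 6.77, 6.10 and 6.92 in vehicle arrays of day 4 and 4.51, 2.27 and 2.22 in those of day 6, high in the same replicate 1 as the members. It was picked by this likeness, so being high in that replicate follows from the choice. GDF15 also passed the filter only through the vehicle arrays of day 4.

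Members had 24 further probe sets, of which 22 belonged to tested members, and 6 of these had a mean level of 4 or more. In the 4 treated comparisons, 0 of the 22 had a call opposite to a call of the member's own probe set, but for 3 genes another bright probe set was not called where the member's own was. That of EIF2AK2 was called in none of the 4, at 0.0782 (limma adjusted p = 0.852) beside 0.46 on MV4-11 day 2, -0.24 (0.237) beside -0.53 on day 4, 0.0105 (0.969) beside 0.29 on day 6 and -0.26 (0.166) beside -0.43 in MOLM-13 cells. Those of XAF1 were at -0.46 (0.352) and -0.34 (0.292) on MV4-11 day 4, beside -0.55, and at -0.51 (0.258) and 0.53 (0.0715) in MOLM-13 cells, beside 0.48. On MV4-11 day 6 the other bright probe sets of XAF1 were at -0.76 (limma adjusted p = 0.0916) and 1.01 (0.00166), beside 0.83 for the one used above. That of SAMD9 was at -0.29 (0.223), beside 0.52, and in MOLM-13 cells it was lower at -0.79 (0.00191), beside a difference of 0.27 that was not called. The calls of these 3 genes therefore hold for the probe set used and not for every probe set of the gene.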

How the data were processed

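RNA of 24 cultures was measured on Affymetrix arrays of 54675 probe sets, 3 arrays in each of 8 groups of cell line, agent and day. The deposited values are intensities on a linear scale, 1 per probe set and array. Per the submitters' processing notes they were made with GCRMA, which adjusts background, normalises between arrays and summarises probes, with the version not given in the sources used here. Background adjustment sets dim probe sets to a common lowest value, which limits differences of dim genes. The intensities were taken to log2 with a pseudocount of 0 and were not normalised again. Values were read from the deposited table, and no array was left out.

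The platform annotation gave 1 gene symbol for 41097 probe sets, several for 1801 and none for 11777, and 41043 symbols matched RefSeq, with 0 updated. The probe set with the highest mean over the 24 arrays stood for its gene, without the 62 control probe sets. Genes with log2 of 4 or more in at least 3 arrays were tested by limma's moderated test (version 3.58.1, R 4.3.3; lmFit with contrasts.fit and eBayes) in 1 fit of 8 groups, two-sided, with Benjamini-Hochberg adjustment over 10963 genes and a threshold of 0.05. The fit was tested on simulated data. Promoters and figures were made in Python 3.11.15. Groups and replicate numbers came from the labels, and the numbers did not pair treated with vehicle arrays. An exact permutation test of 3 against 3 arrays cannot go below p = 0.1, so no such test was used.

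The 40 members, their roles, the lists of pathway genes and the cell type markers were chosen with earlier results of these data known. All members are named. Alternatives were no filter or a filter at log2 of 6, a pseudocount of 16, the mean of probe sets, a common median, quantile normalisation, only the compared arrays, a trended and robust fit, a replicate block, other vehicle arrays, a minimum of 2-fold and each array left out.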

Additional observations from a re-analysis of the deposited data

Results flagged for a closer look

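The effect of EPZ004777 in MV4-11 cells differed between days for most tested members, by the interaction term of the limma fit. Day 4 minus day 2 was called for 27 members as lower and 0 as higher, against 7.77% and 7.22% of all genes, with IFIT1 at -5.61, IFIT3 at -4.63, CXCL10 at -6.05, IFI44 at -4.42 and IFI44L at -4.23 on the log2 scale. Day 6 minus day 4 was called for 28 members as higher and 1 as lower, against 13.9% and 11.9%, with IFIT1 at 4.19, MX1 at 4.16, CXCL10 at 5.39, ISG20 at 3.77 and IFI44L at 3.68. CXCL10, IFI44, IFI44L and ISG20 were tested only through the day 4 vehicle arrays, so they had to differ there and their values are descriptions. Without members of that kind the counts were 19 lower and 0 higher, and 19 higher and 1 lower, of 26. All of these differences use the vehicle arrays of day 4, and in those arrays CXCL10 and IFI44L were above their levels in every other array. In the treated arrays of days 4 and 6 CXCL10 was at 2.19, the bottom of the scale. The effect also differed between lines on day 6, where MOLM-13 minus MV4-11 was called for 3 members as higher and 11 as lower, against 19.3% and 32.7% of all genes, so the members' shares were below those of all genes. The members furthest apart were HERC5 at -3.22, RSAD2 at -2.31, PARP9 at -1.68 and HERC6 at -1.59, and LGALS3BP at -2.32, which was tested only through the treated arrays of MV4-11 day 6.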

How the results depend on the processing

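Of the values of single genes under the alternatives, 7051 kept their side of the threshold, and 133 gained and 322 lost a call. A further 25 changed sign with a call in at least 1 of the 2 fits. Changes of sign between 2 values without a call are counted among the 7051. An example is PARP9 on MV4-11 day 2, at -0.12 on another probe set beside 0.42. Counts here are of members called higher or lower in limma fits. With the vehicle arrays of days 2 and 6, the treated arrays of MV4-11 day 4 gave 20 higher and 3 lower members in place of 2 and 26, and these members changed sign: IRF7 0.47, IRF9 0.44, IFIH1 0.39, EIF2AK2 0.54, HERC5 0.99, HERC6 1.20, MX1 0.20, MX2 1.20, RSAD2 1.95, CMPK2 0.50, ISG20 0.17, SAMD9 0.45, SAMD9L 1.64, PARP9 0.79, PARP14 0.43, IFI6 1.34, IFI35 0.38 and XAF1 0.75. Against vehicle of day 2, chosen after seeing the data, day 6 gave 1 lower member in place of 4. Without vehicle replicate 1 of day 6, MX1 changed sign on MV4-11 day 6, at 1.07, and with each array left out it ranged from -1.05 to 1.07. Where at least 1 of the 2 probe sets was called, another probe set changed the sign of IFIH1 on day 4 (0.0366) and of SAMD9 (-0.29) and XAF1 (-0.76) on MV4-11 day 6. In MOLM-13 it did so for PARP14 (0.0212), SAMD9 (-0.79) and XAF1 (-0.51). The cause was not tested.

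With no filter, higher counts were 3 of 5 on day 2, 1 of 2 on day 4, 8 of 13 for treated day 4 against day 2, and 0 of 1 for vehicle day 6 against day 2; the lower count of day 6 minus day 4 was 0. The filter at log2 of 6 left 1 higher on day 4 and 0 for treated day 6 against day 4, as it tests fewer genes. With only the compared arrays, day 2 had 8 higher, day 6 had 8 higher and 1 lower, vehicle day 6 against day 4 had 16 lower, vehicle day 6 against day 2 had 0 higher, treated day 4 against day 2 had 1 lower, treated day 6 against day 4 had 3 higher and 0 lower, MOLM-13 against MV4-11 had 7 lower, and day 6 minus day 4 had 0 lower. The mean of probe sets gave 3 higher on day 2 and 0 for vehicle day 6 against day 2. Quantile normalisation again gave 7 lower on day 6, 0 higher for vehicle day 6 against day 2, 2 higher and 2 lower for treated day 6 against day 4 and 4 higher for MOLM-13 against MV4-11. A common median gave 2 lower for treated day 6 against day 4. A trended and robust fit gave 2 higher for vehicle day 6 against day 2 and 3 for treated day 6 against day 4, where a pseudocount of 16 also gave 3. A minimum of 2-fold left 0 higher on days 2 and 4, 5 on day 6, 3 higher and 6 lower in MOLM-13, 0 for vehicle day 6 against day 2, 3 higher for treated day 4 against day 2, 0 lower for treated day 6 against day 4, 0 higher and 7 lower for MOLM-13 against MV4-11, 0 lower for day 6 minus day 4 and 7 lower for MOLM-13 minus MV4-11.

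With each array left out, treated against vehicle gave 2 to 4 higher and 0 to 1 lower on day 2, 1 to 3 and 25 to 27 on day 4, 10 to 19 and 2 to 11 on day 6, and 4 to 5 and 8 to 10 in MOLM-13. Vehicle day 4 against day 2 gave 32 to 33 higher and 0 lower, day 6 against day 4 gave 0 higher and 26 to 31 lower, and day 6 against day 2 gave 0 to 3 higher and 0 lower. Treated day 4 against day 2 gave 7 to 9 higher and 0 lower, and day 6 against day 4 gave 1 to 2 higher, 2 without treated replicate 2 of day 6, and 1 lower. MOLM-13 against MV4-11 vehicle gave 2 to 9 higher and 8 to 17 lower. Day 4 minus day 2 gave 0 to 1 higher and 25 to 27 lower, day 6 minus day 4 gave 25 to 32 and 0 to 1, and MOLM-13 minus MV4-11 gave 3 to 4 and 9 to 18.

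Over all tested genes, calls on day 2 numbered 1372, and 912 without vehicle replicate 1. Vehicle day 4 against day 2 had 2957, and 1871 without vehicle replicate 3 of day 4; day 6 against day 4 had 2112, and 1095 without that array, 1310 without vehicle replicate 2 and 1284 without replicate 3 of day 6. Vehicle day 6 against day 2 had 123, from 28 to 366 with an array left out, and 0 with only the compared arrays, where treated day 6 against day 4 had 859 in place of 2623. Scaling moved splits of higher and lower calls. MOLM-13 minus MV4-11 had 2120 and 3583, but 3204 and 2589 with a common median and 2988 and 2776 with quantile normalisation. Treated day 6 against day 4 had 1538 and 1085, but 1128 and 1422, 1232 and 1438, and with the mean of probe sets 1208 and 1506. Day 6 minus day 4 had 1519 and 1302, but 1259 and 1709 with a common median and 1158 and 1773 with the mean of probe sets. Day 2 had 968 and 404, but 763 and 499 with quantile normalisation, and vehicle day 6 against day 2 had 86 and 37, but 56 and 38 with the mean of probe sets.

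Replicate numbers were shared between groups, but deviations of same-numbered treated and vehicle arrays correlated at -0.26 to 0.10, so the numbers do not pair them. With a replicate block, 2 members were higher on day 2, 0 for vehicle day 6 against day 2 and 0 were lower for day 6 minus day 4. Dim members, with values at the bottom of the scale, limit the sizes of their differences.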

Other observations

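The lists not described above moved as follows in treated against vehicle cultures, by limma calls. Of all tested genes 8.83% were higher and 3.69% lower on MV4-11 day 2, 25.2% and 21.0% on day 4, 33.6% and 28.4% on day 6, and 29.3% and 36.5% in MOLM-13 cells. Of the interferon gamma response genes 5 of 11 were tested, with 1 higher and 1 lower on MV4-11 day 2, 1 and 3 on day 4, 1 and 2 on day 6, and 2 and 1 in MOLM-13 cells. GBP1, GBP4, GBP5, CXCL9, IDO1 and FCGR1A, the other six, stayed below a log2 level of 4 in all 24 arrays. CXCL9 is a chemokine related to CXCL10, which reached 8.92 in a vehicle array of day 4. Of 10 tested housekeeping genes 0 were higher and 1 was lower on day 2, 0 and 3 on day 4, 0 and 6 on day 6, and 2 and 4 in MOLM-13 cells. Of 3 tested T and NK cell markers 1, 1, 2 and 3 were higher in the same order and 0 lower. Of 3 tested fibroblast and epithelium markers 0 were higher and 0 lower on day 2, 0 and 1 on day 4, and 1 and 1 on day 6 in either line. Of 2 tested B cell markers 1 was higher on day 2 and 1 lower on day 4.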
